A study of Mus musculus with 26 samples.

Results

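Cholesterol synthesis, uptake and efflux were followed through 35 listed mouse genes, chosen by name for their place in the pathway: 18 enzymes of synthesis, 6 regulators, 4 genes of uptake and trafficking, 4 of efflux, esterification and elimination, and 3 of fatty acid synthesis. A gene was matched by its symbol or an older alias, and was read from the probe set (a group of short probes on the array) with that 1 symbol and the highest mean over all arrays. Of the 35, 32 had such a probe set and all of these passed the filter on low values, among 14941 genes tested. The expression of Acat2, Nr1h2 and Soat1 was not analysed here.

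The study asked what delivery of brain-derived neurotrophic factor (BDNF), a secreted factor that supports neurons, does to gene expression in a mouse model of amyloid disease. RNA was measured on 26 Affymetrix arrays, 13 of dissected entorhinal cortex and 13 of hippocampus, from aged mice. This was 4 weeks after a lentivirus had been given into the entorhinal cortex or, in the sham groups, after a sham lesion. Each region had 4 arrays of mice with an APP (amyloid precursor protein) transgene given BDNF virus, 4 of APP transgenic mice given eGFP virus (GFP, a fluorescent protein with no signalling role), 2 of non-transgenic mice given GFP virus and 3 of non-transgenic mice with a sham lesion. The labels used here name neither the APP line, the promoter that drives it, the exact age, nor the animal behind an array. Every transgenic group used here had a virus, while the labels of the 3 sham arrays of each region name none. Replicates are called biological in the labels. Arrays of both regions may come from the same mice, so results of the regions may not be independent of each other. Comparisons of regions treated all 26 arrays as independent. In a bulk tissue array, fewer cells of a type and less RNA per cell cannot be told apart.

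Neurons and glia make their own cholesterol, because lipoproteins of the blood hardly cross into the brain. Oligodendrocytes use much of it for myelin, astrocytes pass it to neurons on lipoprotein particles, and neurons rid themselves of the excess by hydroxylating it. When the sterol content of the endoplasmic reticulum falls, Scap escorts the precursor of the transcription factor encoded by Srebf2 to the Golgi, where it is cut and released to switch on the genes of synthesis and uptake, while the Insig proteins hold Scap back when sterol is plentiful. Srebf1 encodes the related factor that mainly drives fatty acid genes.

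Promoters of the members show what such factors could read. RefSeq windows of 300 bases on GRCm38.p6, from 250 bases before to 50 after an annotated start, were matched by symbol for 27 of the 35 genes (Acat2, Nr1h2 and Soat1 included), in 35 windows. No window was held for Fdft1, Sqle, Fdps, Stard4, Npc1, Abcg1, Scd1 or Scd2. Shown are an enzyme of the head of the route (Hmgcs1), an enzyme of the middle of the pathway (Idi1) and a late one (Nsdhl). The regulator Insig1 and, of the fatty acid genes, fatty acid synthase (Fasn) are shown too. Capitals mark matches, on either strand, to the sterol regulatory element TCACNCCAC, its looser core TCACNC, which lies within it, and CCAAT, the box read by the factor NF-Y.

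Hmgcs1: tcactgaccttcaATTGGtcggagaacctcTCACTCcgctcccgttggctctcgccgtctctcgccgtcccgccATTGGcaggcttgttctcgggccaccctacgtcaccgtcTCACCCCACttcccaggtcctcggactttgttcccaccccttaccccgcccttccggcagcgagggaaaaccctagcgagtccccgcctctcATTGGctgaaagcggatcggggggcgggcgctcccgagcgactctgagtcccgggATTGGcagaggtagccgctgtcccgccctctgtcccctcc
Idi1: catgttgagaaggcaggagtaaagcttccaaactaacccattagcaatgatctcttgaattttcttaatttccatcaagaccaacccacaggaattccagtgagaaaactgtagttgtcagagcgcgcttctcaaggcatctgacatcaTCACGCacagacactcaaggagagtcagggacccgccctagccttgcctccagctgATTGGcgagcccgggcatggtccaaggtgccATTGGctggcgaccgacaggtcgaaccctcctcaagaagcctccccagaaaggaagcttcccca
Nsdhl: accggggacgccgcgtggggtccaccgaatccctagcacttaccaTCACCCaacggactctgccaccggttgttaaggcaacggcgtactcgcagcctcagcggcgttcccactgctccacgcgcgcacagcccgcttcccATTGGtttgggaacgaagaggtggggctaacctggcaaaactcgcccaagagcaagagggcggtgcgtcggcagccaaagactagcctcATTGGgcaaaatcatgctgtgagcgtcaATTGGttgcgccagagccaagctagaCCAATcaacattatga
Insig1: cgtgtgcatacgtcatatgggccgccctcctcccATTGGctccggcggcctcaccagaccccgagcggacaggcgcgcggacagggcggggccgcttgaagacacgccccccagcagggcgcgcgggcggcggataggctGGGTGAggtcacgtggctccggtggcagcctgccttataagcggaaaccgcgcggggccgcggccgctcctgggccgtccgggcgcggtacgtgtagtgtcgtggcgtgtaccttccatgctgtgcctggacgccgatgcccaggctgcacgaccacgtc
Fasn: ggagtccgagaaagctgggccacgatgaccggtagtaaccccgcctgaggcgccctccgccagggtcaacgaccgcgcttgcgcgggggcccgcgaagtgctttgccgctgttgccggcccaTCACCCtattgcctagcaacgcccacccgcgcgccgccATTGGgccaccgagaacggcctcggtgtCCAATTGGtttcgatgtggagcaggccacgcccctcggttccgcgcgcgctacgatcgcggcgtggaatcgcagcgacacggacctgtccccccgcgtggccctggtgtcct

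These windows lie at chr13:119690101-119690400 (plus strand), chr13:8885356-8885655 (plus), chrX:72918271-72918570 (plus), chr5:28071162-28071461 (plus) and chr11:120824498-120824797 (minus), each written in the direction of its gene. The full element occurred in 1 of 18 windows of synthesis genes, that of Hmgcs1 at -137 to -129 from the start, and in 1.24% of all 32851 windows. The looser core was in 38.9% of synthesis windows and 43.2% of all windows. CCAAT was in 14 of 18 synthesis windows (77.8%) against 37.4% of all, and at least 2 copies were in 10 (55.6%) against 11.7%. A match is a stretch of letters and was not tested as a binding site, and windows without one say nothing of regions outside them.

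Some arrays stood apart. In the entorhinal cortex the mean of 11 oligodendrocyte markers reached just 7.38 on transgenic BDNF array 3 and 7.55 on non-transgenic GFP array 2, where the remaining 11 arrays gave 8.18 to 9.01. The hippocampal sham array 1 had a choroid plexus marker mean of 8.82, against 5.99 to 6.31 on the rest of that region's arrays. Xist was low on 8 arrays, 4 of the 8 transgenic arrays of each region and 0 of the 5 non-transgenic ones. Comparisons of transgenic with non-transgenic arrays were thus not balanced for Xist. Antigen presentation genes varied most, with means of 7.27 to 11.0 over the hippocampal arrays. App itself differed by -0.01 ± 0.04 (log2, SE) between transgenic and non-transgenic arrays in the entorhinal cortex and by 0.00 ± 0.05 in the hippocampus, so its probe set did not check the genotype labels. Thy1, named after its values were seen, read 13.53 to 13.99 on all 16 transgenic and 12.30 to 12.67 on all 10 non-transgenic arrays, which separated the genotypes as labelled. Bdnf did not differ beyond its error between BDNF and GFP arrays, at 0.11 ± 0.21 and -0.14 ± 0.17.

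In the hippocampus of transgenic mice, Stard4, a carrier that moves cholesterol between membranes, was 1.52-fold higher than in non-transgenic mice, and it was the only member called. The enzymes of synthesis lay above 0 in 16 of 17 cases there, with a median log2 difference of 0.25, while efflux genes lay between -0.10 and 0.06 and fatty acid genes between -0.03 and 0.01. The entorhinal cortex showed 16 of 17 enzymes above 0 with a median of 0.14 and none called. BDNF against GFP gave no called member in either region.

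**Figure D1:**
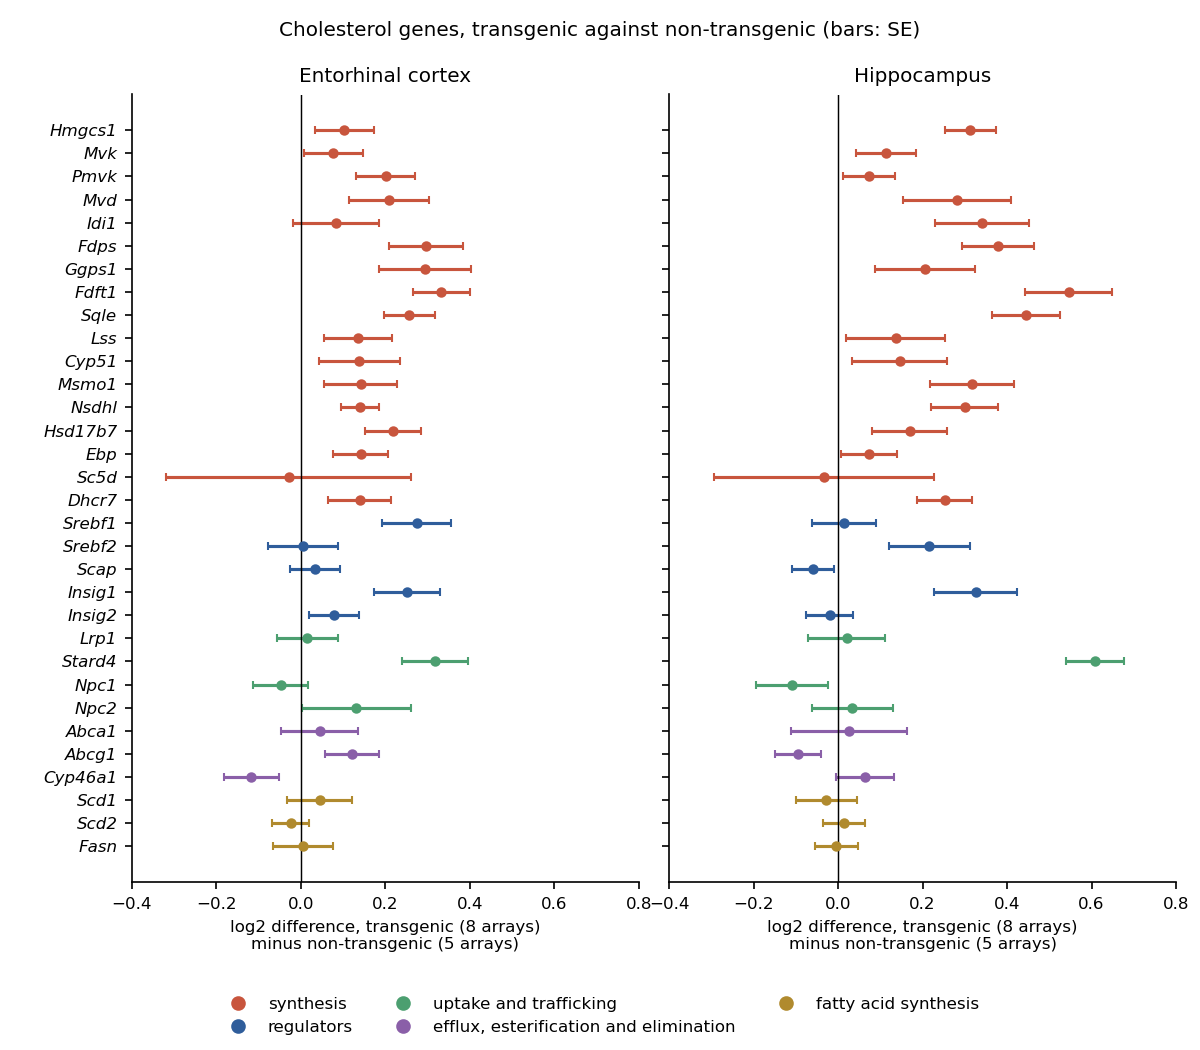
Log2 difference between transgenic (8 arrays) and non-transgenic (5 arrays) mice for the 32 measured genes, with its standard error as a bar, by region and coloured by role. Stard4, Fdft1 and Sqle lie farthest to the right in the hippocampus, and genes of fatty acid synthesis lie near 0 in both regions.

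Stard4 is a soluble sterol carrier that feeds cholesterol back to the endoplasmic reticulum, and its gene is itself a known target of the sterol-responsive factors. In the hippocampus its log2 values were 7.87, 7.73 and 7.71 on the sham arrays and 7.68 and 7.48 on the non-transgenic GFP arrays. They were 8.43, 8.10, 8.22 and 8.41 with GFP and 8.19, 8.40, 8.32 and 8.35 with BDNF. All 8 transgenic arrays lay above all 5 non-transgenic ones, with BDNF and GFP arrays mixed. The difference was 0.61 ± 0.07 (SE), with a limma adjusted p of 0.0033 over all genes. By the same rule 0.0602% of all genes tested were called, and all 8 arrays lay above all 5 for 0.0937% of genes.

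Each transgenic group alone gave nearly the same size for Stard4 in the hippocampus. Against all non-transgenic arrays, transgenic GFP arrays differed by 0.60 ± 0.08 (adjusted p 0.016, with 0.0402% of genes called) and transgenic BDNF arrays by 0.62 ± 0.08 (0.021, with 0.0535% called). These comparisons share the non-transgenic arrays. Against the 2 non-transgenic GFP arrays, transgenic GFP arrays differed by 0.71 ± 0.11, which missed the threshold (adjusted p 0.11, with 0.00669% called). The call over all 8 transgenic arrays held when any 1 array was left out, at adjusted p 0.0028 to 0.026. Among the other settings, it ended with the gene's 3 probe sets averaged (0.47, adjusted p 0.34). It also ended on the arrays with high Xist alone, where the size was 0.61 (0.13), and with a replicate block, described in the last section. The 3 probe sets differed by 0.61 ± 0.07, 0.48 ± 0.12 and 0.33 ± 0.15, from the brightest to the dimmest.

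Single arrays decided the call in the smaller comparisons. For transgenic GFP it was lost without GFP array 1 (adjusted p 0.070) or 4 (0.081), without non-transgenic GFP array 2 (0.054), or without sham array 2 (0.081) or 3 (0.082). For transgenic BDNF it was lost without any 1 of the BDNF arrays 1 to 4 (0.057, 0.086, 0.12 and 0.11), without non-transgenic GFP array 2 (0.0503), or without sham array 2 (0.089) or 3 (0.11). The size of the difference stayed between 0.54 and 0.66 in all of these. Against the 2 non-transgenic GFP arrays the reverse was seen, since leaving out transgenic GFP array 2 brought the difference to 0.77 with an adjusted p of 0.026.

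In the entorhinal cortex, where the virus had been placed, Stard4 read 7.98, 8.23 and 8.20 on the sham arrays and 8.18 and 8.14 on the non-transgenic GFP arrays. It read 8.28, 8.57, 8.70 and 8.51 with GFP and 8.23, 8.50, 8.44 and 8.49 with BDNF in transgenic mice. The lowest transgenic value, 8.229 on BDNF array 1, was just under the highest non-transgenic one, 8.231 on sham array 2, so the groups touched. The difference was 0.32 ± 0.08 (unadjusted p 0.0016, adjusted p 0.36). The middle probe set read 0.24 ± 0.11 and the dimmest 0.42 ± 0.135. In the hippocampus the dimmest read 0.33 ± 0.15, so it did not share the larger hippocampal difference of the brightest. The test of the difference between regions gave 0.29 ± 0.11 more in the hippocampus (95% interval 0.07 to 0.51, unadjusted p 0.012, adjusted p 0.80). It took the arrays of the regions as independent, though they may share mice. No gene was called in that test by limma (0.0% of genes), and at an unadjusted p under 0.05 there were 473 higher and 450 lower.

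Fdft1 encodes squalene synthase, which commits the pathway to sterols. In the hippocampus its values were 10.19, 10.26 and 10.36 on the sham arrays and 10.10 and 10.07 on the non-transgenic GFP arrays. Transgenic mice gave 11.09, 10.34, 10.65 and 10.97 with GFP and 10.70, 10.74, 10.70 and 10.72 with BDNF. GFP array 2, at 10.34, fell just under the highest sham array, and the other 7 transgenic arrays lay clear of all 5. The 4 BDNF arrays lay close together, while the GFP arrays spanned the whole transgenic range. The difference was 0.55 ± 0.10 (adjusted p 0.12), or 1.46-fold. Its second bright probe set read 0.49 ± 0.10 and the 2 dim ones 0.03 ± 0.07 and -0.12 ± 0.08, so that their mean read 0.23 (adjusted p 0.39).

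Sqle encodes squalene epoxidase, the first oxygen-requiring and a rate-limiting step. Hippocampal values were 9.87, 9.87 and 10.03 on the sham arrays and 9.66 and 9.92 on the non-transgenic GFP arrays. In transgenic mice they were 10.40, 9.98, 10.36 and 10.47 with GFP and 10.33, 10.34, 10.31 and 10.33 with BDNF. The groups overlapped through GFP array 2 alone, which at 9.98 lay under sham array 3 (10.03). The difference was 0.45 ± 0.08 (adjusted p 0.10).

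Hmgcs1 encodes the enzyme that joins acetoacetyl-CoA and acetyl-CoA at the head of the mevalonate route. Its hippocampal values were 11.57, 11.38 and 11.48 on the sham arrays and 11.13 and 11.24 on the non-transgenic GFP arrays. Transgenic arrays had 11.70, 11.51, 11.60 and 11.86 with GFP and 11.70, 11.67, 11.71 and 11.63 with BDNF. Sham array 1, at 11.57, exceeded GFP array 2, at 11.51, and there was no other overlap. The difference was 0.31 ± 0.06 (adjusted p 0.16), and the 3 next brightest of its 5 probe sets read 0.28 to 0.31.

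Fdps encodes farnesyl diphosphate synthase, whose product feeds sterols, dolichol and protein prenylation. In the hippocampus it read 8.50, 8.60 and 8.71 on the sham arrays and 8.45 and 8.51 on the non-transgenic GFP arrays. With the transgene it read 9.15, 8.57, 8.91 and 9.08 with GFP and 8.95, 9.02, 8.86 and 8.91 with BDNF. GFP array 2 (8.58) again lay among the non-transgenic arrays, and the other 7 lay above all 5. The difference was 0.38 ± 0.09 (adjusted p 0.32), and 0.18 (0.83) when averaged with its other, dim probe set (-0.02 ± 0.06).

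Transgenic GFP array 2 of the hippocampus was thus low in each of these enzymes, and its mean over the 17 synthesis genes was 8.71, against 8.86 to 9.22 on the other 7 transgenic arrays and 8.57 to 8.87 on the 5 non-transgenic ones. Without it, Fdft1 (0.60, adjusted p 0.0050), Sqle (0.49, 0.0050) and Fdps (0.43, 0.016) passed the threshold beside Stard4 for all transgenic against non-transgenic arrays, in a fit that called 14 genes in all. The same 3 passed for transgenic GFP (0.71, 0.54 and 0.49, with adjusted p 0.013, 0.019 and 0.047), where 9 genes were called. Against non-transgenic GFP arrays, Fdft1 (0.82, 0.030) and Sqle (0.62, 0.045) passed beside Stard4, among 5 genes called. GFP array 2 was singled out by its low values in these same enzymes. Leaving it out therefore raises their differences by construction, and these calls give no separate support. On that array Abca1, the pump that loads cholesterol onto lipoproteins, had its highest value of all 26 arrays, 10.01, and on GFP array 4, where the synthesis mean was highest, its lowest, 9.04. Both arrays were named for their synthesis values, and a relation of Abca1 to synthesis over all arrays was not tested.

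**Figure D2:**
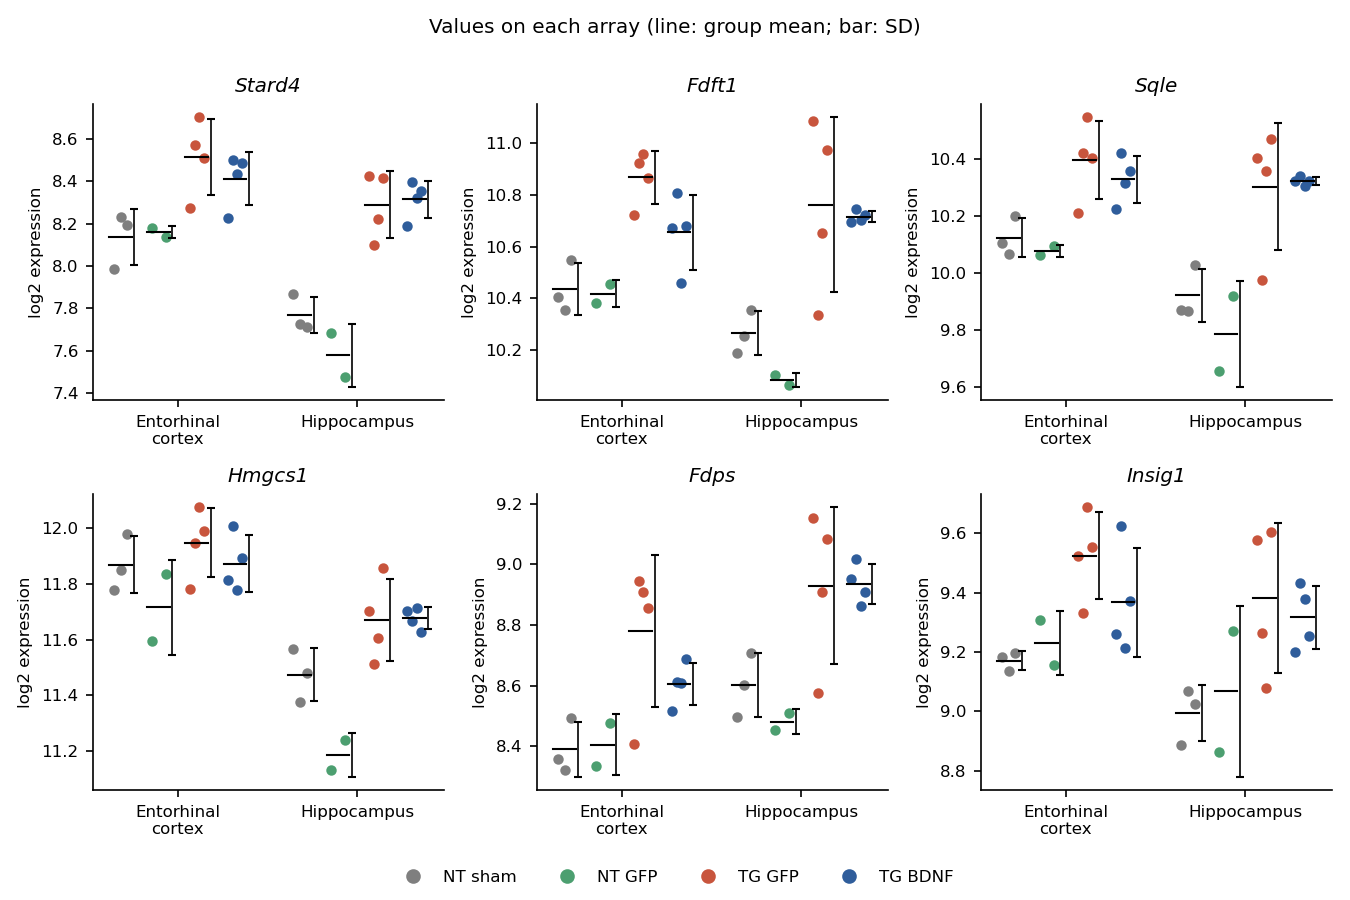
Log2 value of 6 genes on each array (points) by group and region, with the group mean (line) and SD (bar). In the hippocampus 1 transgenic GFP array lies low for Fdft1, Sqle and Fdps, and the 4 transgenic BDNF arrays lie close together.

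Dhcr7 and Nsdhl act late in synthesis, the first reducing the last double bond and the second removing methyl groups from the sterol ring. Hippocampal Dhcr7 read 8.71, 8.79 and 8.66 on the sham arrays and 8.43 and 8.36 on the non-transgenic GFP arrays, and 8.69 to 9.07 (median 8.81) over the 8 transgenic arrays. Sham arrays 1 and 2 overlapped the transgenic ones, and the difference was 0.25 ± 0.06 (adjusted p 0.50). Nsdhl read 9.11, 8.85 and 8.97 on the sham arrays and 8.83 and 8.86 on the non-transgenic GFP arrays, and 9.07 to 9.60 (median 9.20) in transgenic mice. Sham array 1 alone overlapped, and the difference was 0.30 ± 0.08 (adjusted p 0.50).

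Over the other 11 measured enzymes, hippocampal differences ran from -0.03 for Sc5d to 0.34 for Idi1, the isomerase that makes the building block for farnesyl diphosphate. Sc5d, a late desaturase, was the only enzyme below 0 and had by far the widest error (0.26), with values from 7.19 to 9.13 over the 26 arrays. In all, 9 of 17 enzymes had an unadjusted p under 0.05 and were higher, and 0 were lower, while 3.15% of all genes were higher at that level. Over all genes tested 54.4% lay above 0 with a median of 0.01. The median of the synthesis genes was 0.20 to 0.28 when single arrays were left out. It was 0.16 against sham alone and 0.41 against the non-transgenic GFP arrays alone, so its size rested on which control was used.

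In the entorhinal cortex, 8 of 17 enzymes were higher at an unadjusted p under 0.05 and 0 lower, against 7.15% of all genes higher. None was called, and 0.0402% of genes were. Over all genes 57.3% lay above 0 with a median of 0.02. Fdft1 read 10.41, 10.35 and 10.55 on the sham arrays and 10.38 and 10.46 on the non-transgenic GFP arrays, and 10.72, 10.92, 10.96 and 10.87 with GFP and 10.67, 10.81, 10.46 and 10.68 with BDNF in transgenic mice. BDNF array 3, at 10.46, was the only transgenic array within the non-transgenic range. The difference was 0.33 ± 0.07 (adjusted p 0.26). Its other bright probe set read 0.28 ± 0.07 and the dim ones -0.28 ± 0.08 and 0.00 ± 0.11, which brought the mean of the 4 to 0.085 (adjusted p 0.55).

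Entorhinal Sqle was 10.11, 10.07 and 10.20 on the sham arrays and 10.06 and 10.09 on the non-transgenic GFP arrays, and 10.21, 10.42, 10.55 and 10.40 with GFP and 10.22, 10.42, 10.32 and 10.36 with BDNF in transgenic mice. It was the only member whose 8 transgenic arrays lay above all 5 others in this region, which 0.428% of all genes did. Its difference was 0.26 ± 0.06 (adjusted p 0.36). Fdps read 8.36, 8.32 and 8.49 on the sham arrays and 8.33 and 8.48 on the non-transgenic GFP arrays, and 8.41, 8.95, 8.91 and 8.86 with GFP and 8.52, 8.61, 8.61 and 8.69 with BDNF, with GFP array 1 inside the non-transgenic range and a difference of 0.30 ± 0.09 (adjusted p 0.38).

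Hmgcs1 moved least of these in the entorhinal cortex, at 0.10 ± 0.07 (adjusted p 0.58). Its values were 11.78, 11.85 and 11.98 on the sham arrays and 11.59 and 11.84 on the non-transgenic GFP arrays, and 11.78 to 12.07 (median 11.92) in transgenic mice, so the groups overlapped broadly. Probe sets disagreed here, with differences of 0.10, -0.11, -0.17 and 0.03 for the 4 bright ones. Dhcr7 read 8.72, 8.63 and 8.61 on the sham arrays and 8.39 and 8.56 on the non-transgenic GFP arrays, and 8.45 to 8.86 (median 8.74) (difference 0.14 ± 0.07, adjusted p 0.49). Nsdhl read 9.17, 9.14 and 9.24 on the sham arrays and 9.03 and 9.04 on the non-transgenic GFP arrays, and 9.16 to 9.36 (median 9.28), a difference of 0.14 ± 0.05 (adjusted p 0.38) in which sham arrays 1 and 3 overlapped the transgenic ones.

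Taking the transgenic groups apart in the entorhinal cortex changed no call. Transgenic GFP against all non-transgenic arrays gave 16 of 17 enzymes above 0 with a median of 0.19 (0.0134% of genes called). Fdft1 led it at 0.44 ± 0.08 (adjusted p 0.31). Transgenic BDNF gave 16 of 17 with a median of 0.13 (0.0402% called). Transgenic GFP against the 2 non-transgenic GFP arrays gave 17 of 17 with a median of 0.28 (0.0134% called). These counts are given without the share of all genes above 0 in the same comparisons. With 2 control arrays, no member reached the threshold there, and the lowest adjusted p among the members was 0.9999.

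Markers of other cell types were read beside the synthesis genes. In the transgenic hippocampus all 11 oligodendrocyte markers lay below 0 with a median of -0.13 and a list mean of 9.43 to 10.1 per array, where non-transgenic arrays had 9.57 to 9.99. Astrocyte markers lay below 0 in 8 of 10 (median -0.10; 10.25 to 10.36 per array, where non-transgenic arrays had 10.34 to 10.40), and neuronal ones above 0 in 9 of 10 (median 0.06). In the entorhinal cortex 9 of 11 oligodendrocyte markers lay above 0 (median 0.17) and 7 of 10 astrocyte markers below it (median -0.06). With the oligodendrocyte mean as a covariate, Stard4 in the hippocampus differed by 0.61 (adjusted p 0.011) and the synthesis median was 0.25. With the antigen presentation mean as a covariate they were 0.62 (0.0048) and 0.28. Endothelial (8 of 8) and meningeal markers (7 of 7) also lay below 0 in the transgenic hippocampus, and microglial ones lay above 0 in 4 of 9. The part of these, astrocyte and neuronal markers in the result was not tested. Choroid plexus markers lay below 0 in 6 of 6, but apart from sham array 1 (8.82) the non-transgenic arrays had means of 5.99 to 6.30, within the transgenic range of 5.99 to 6.31. On the arrays with high Xist alone the synthesis median was 0.23 in the hippocampus and 0.15 in the entorhinal cortex.

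**Figure D3:**
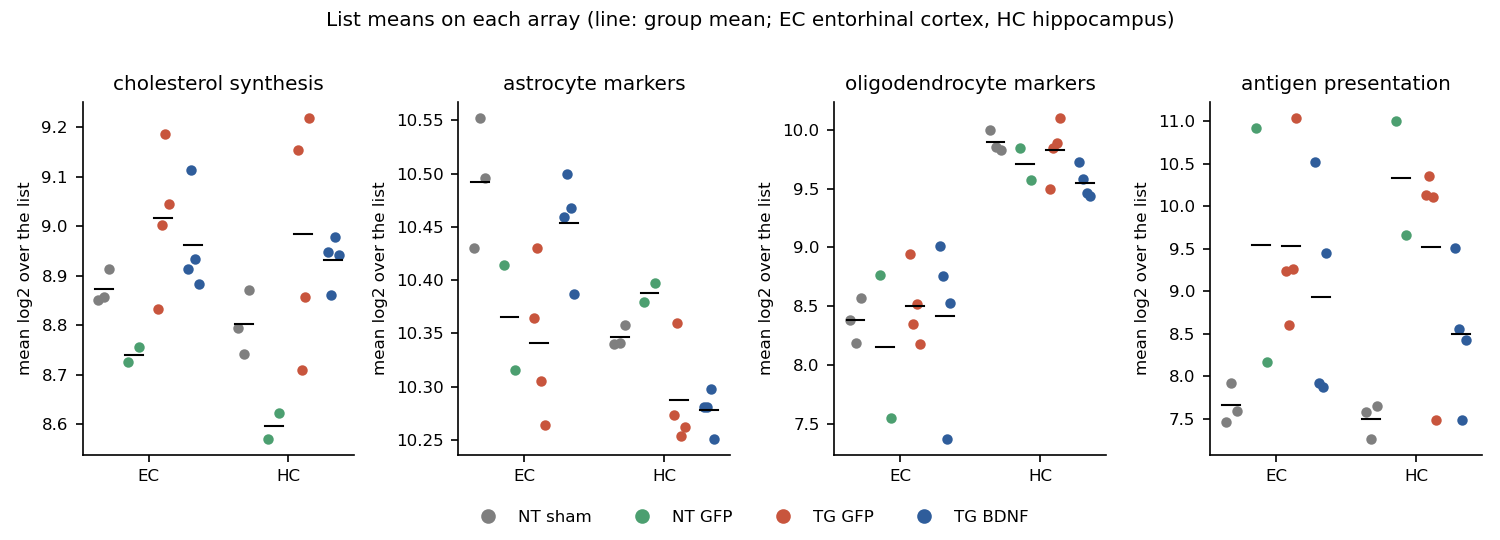
Mean log2 value over the 17 synthesis genes and over 3 marker lists on each array (points) by group, with the group mean (line). Transgenic hippocampal arrays lie mostly above non-transgenic ones in synthesis and below them in astrocyte markers, and the sham arrays lie low in antigen presentation.

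No regulator was called. Their mean per array in the entorhinal cortex was 8.98 to 9.09 without and 9.10 to 9.29 with the transgene. The groups missed overlap narrowly there, at 9.088 against 9.099. No single regulator kept the groups apart, as 0.428% of all genes did with all 8 transgenic arrays above all 5. In the hippocampus the means of the regulators were 9.08 to 9.18 and 9.17 to 9.28. Srebf1, the factor of fatty acid genes, had the smallest p among them, in the entorhinal cortex, where it read 8.63, 8.82 and 8.72 on the sham arrays and 8.96 and 8.85 on the non-transgenic GFP arrays, and 9.26, 8.89, 9.01 and 8.95 with GFP and 9.29, 9.17, 9.10 and 8.88 with BDNF in transgenic mice. BDNF array 4 and GFP arrays 2 and 4 lay under the highest non-transgenic array, and the difference was 0.27 ± 0.08 (adjusted p 0.38). In the hippocampus the same gene read 8.82, 8.82 and 8.95 on the sham arrays and 8.97 and 8.69 on the non-transgenic GFP arrays, and 8.68 to 9.14 (median 8.86), a difference of 0.01 ± 0.08. The test between regions gave -0.26 ± 0.11 (adjusted p 0.80).

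Insig1, the retention protein that is itself made under sterol control, differed by 0.33 ± 0.10 in the hippocampus (adjusted p 0.60) and by 0.25 ± 0.08 in the entorhinal cortex (0.38). Its hippocampal values were 8.86 to 9.27 without and 9.08 to 9.60 with the transgene. Srebf2, the main factor of synthesis genes, differed by 0.22 ± 0.10 (adjusted p 0.87) in the hippocampus and 0.01 ± 0.08 in the entorhinal cortex. Its dimmer probe set read 0.26 ± 0.14 in the hippocampus and 0.17 ± 0.08 in the entorhinal cortex. Scap and Insig2, the escort and the second retention protein, lay between -0.06 and 0.08 in both regions.

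Of uptake and trafficking, only Stard4 stood out. Lrp1, a large receptor for lipoproteins, differed by 0.01 ± 0.07 and 0.02 ± 0.09 in the entorhinal cortex and hippocampus. Npc1 and Npc2 pass cholesterol out of lysosomes, and their differences ran from -0.11 to 0.13 with errors of 0.06 to 0.13.

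Efflux and elimination gave no called member. Abcg1, a pump of cholesterol onto lipoproteins, had the smallest p, in the entorhinal cortex, where it read 9.64, 9.63 and 9.64 on the sham arrays and 9.79 and 9.67 on the non-transgenic GFP arrays, and 9.63 to 9.94 (median 9.81) in transgenic mice. The difference was 0.12 ± 0.06 (adjusted p 0.48) with overlapping groups. In the hippocampus it read 9.78, 9.71 and 9.88 on the sham arrays and 9.78 and 9.68 on the non-transgenic GFP arrays, and 9.56 to 9.78 (median 9.69), a difference of -0.10 ± 0.06 (0.96). Abca1 differed by 0.04 ± 0.09 and 0.03 ± 0.14, and Cyp46a1, the neuronal enzyme that hydroxylates cholesterol for export, by -0.12 ± 0.07 and 0.06 ± 0.07.

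Genes of fatty acid synthesis, the neighbouring lipid pathway, lay near 0. Scd1, a desaturase, read 10.51, 10.66 and 10.60 on the sham arrays and 10.45 and 10.38 on the non-transgenic GFP arrays in the entorhinal cortex, and 10.32 to 10.78 (median 10.59) in transgenic mice (difference 0.05 ± 0.08, adjusted p 0.84). In the hippocampus it read 10.46, 10.36 and 10.50 on the sham arrays and 10.14 and 10.38 on the non-transgenic GFP arrays, and 10.03 to 10.57 (median 10.35) (-0.03 ± 0.07, 0.99). The groups overlapped in both regions. Scd2, its brain relative, and Fasn differed by -0.02 to 0.01 in both regions, with 95% intervals reaching no farther than 0.16 from 0. These are values of the brightest probe sets. The dimmest of Scd2 read -0.51 ± 0.36 in the entorhinal cortex and -0.37 ± 0.30 in the hippocampus, and its middle one -0.01 ± 0.08 and 0.00 ± 0.12. The dimmer one of Scd1 read 0.00 ± 0.10 and 0.17 ± 0.09, in the same order.

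**Figure D4:**
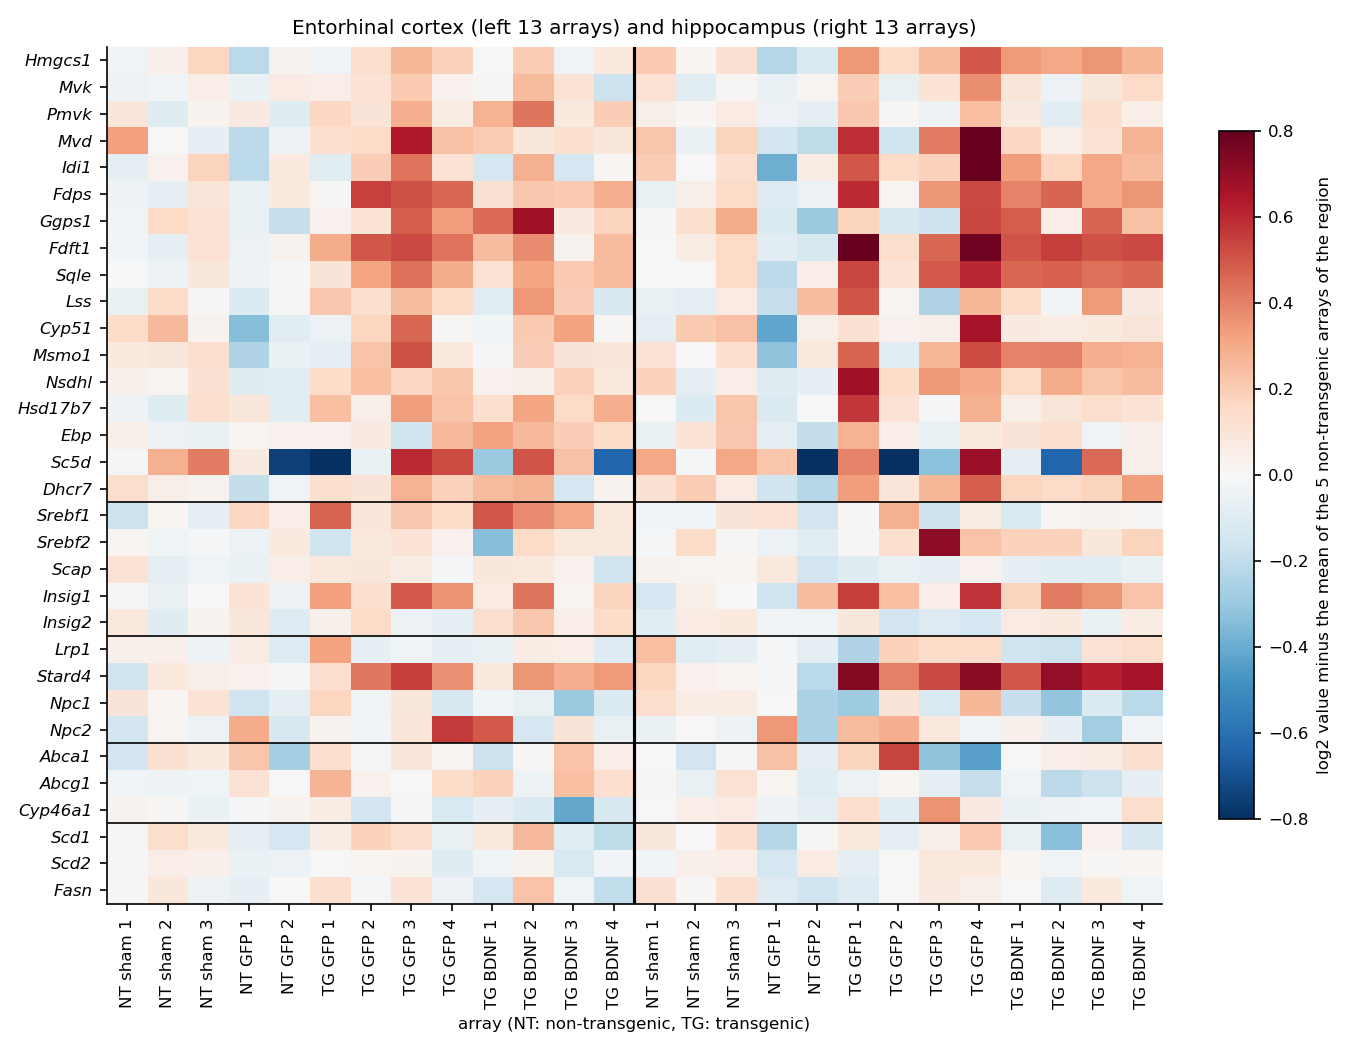
Log2 value of each gene on each array minus the mean of the 5 non-transgenic arrays of its region, with genes in rows by role (lines between roles) and arrays in columns, and colours capped at the ends of the scale. Red fills most synthesis genes and Stard4 on the transgenic hippocampal arrays, least on GFP array 2, and the rows of fatty acid genes are pale.

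BDNF against GFP in transgenic mice, the treatment comparison of the study, moved no member past the threshold. No gene at all was called by limma in the entorhinal cortex (0.0% of genes, with 343 higher and 237 lower at an unadjusted p under 0.05) or in the hippocampus (0.0%, with 274 and 519 such genes). Synthesis genes lay above 0 in 4 of 17 cases in the entorhinal cortex (median -0.07) and in 5 of 17 in the hippocampus (-0.05), beside 55.1% and 45.5% of all genes. Single arrays moved these values: the hippocampal median was 0.02 without GFP array 1, 0.01 without GFP array 4 and -0.15 without GFP array 2, with 1 to 9 of 17 above 0 over such fits, and the entorhinal median ran from -0.12 without GFP array 1 to -0.02 without GFP array 3, with 2 to 7 above 0. Fdft1 had the smallest p, at -0.21 ± 0.08 in the entorhinal cortex (unadjusted p 0.025, adjusted p 0.998). Stard4 differed by -0.10 ± 0.10 (95% interval -0.31 to 0.11) there and by 0.02 ± 0.09 (-0.16 to 0.21) in the hippocampus. The 95% intervals of Sqle were -0.23 to 0.10 and -0.19 to 0.24, and those of Hmgcs1 -0.26 to 0.11 and -0.16 to 0.17. The test of the BDNF effect between regions called no gene (0.0%, with 269 higher and 333 lower at an unadjusted p under 0.05), and Stard4 gave 0.13 ± 0.13. In the hippocampus oligodendrocyte markers were below 0 with BDNF in 11 of 11 (median -0.29) and antigen presentation genes in 9 of 9 (-0.80). With the antigen presentation mean as a covariate Stard4 read -0.12 (adjusted p 0.99) in the entorhinal cortex and -0.02 (0.99) in the hippocampus, and the synthesis medians were -0.09 and -0.12. With the oligodendrocyte mean they were -0.11 and 0.02 for Stard4 and -0.07 and -0.08 for synthesis.

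In non-transgenic mice the GFP arrays (n = 2) were compared with sham (n = 3). Synthesis genes lay below 0 in 16 of 17 cases in the hippocampus, with a median of -0.20, when 38.3% of all genes lay above 0. They did so in 13 of 17 in the entorhinal cortex, with a median of -0.11, when 49.9% of all genes lay above 0. No member was called, with 0.0335% of genes called in the hippocampus and 0.0201% in the entorhinal cortex. Dhcr7 had the smallest p, at -0.32 ± 0.10 in the hippocampus (adjusted p 0.45), followed by Hmgcs1 at -0.29 ± 0.10 (0.47). Fasn read -0.21 ± 0.08 (0.50).

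Antigen presentation genes were above 0 in 9 of 9 in this comparison, with medians of 2.30 in the hippocampus and 1.83 in the entorhinal cortex. With their mean as a covariate the synthesis median became 0.03 in the hippocampus and -0.03 in the entorhinal cortex. Their mean was 7.27 to 7.64 on hippocampal sham arrays and 9.66 to 11.0 on the non-transgenic GFP arrays. Entorhinal means were 7.46 to 7.93 and 8.16 to 10.92. The covariate thus separated the groups compared. This fit cannot tell it apart from GFP against sham, so its part was not tested. Without non-transgenic GFP array 1, and with no covariate, the synthesis median was -0.12 in the hippocampus and -0.08 in the entorhinal cortex. Oligodendrocyte markers lay below 0 in 9 of 11 in the hippocampus (median -0.23) and 10 of 11 in the entorhinal cortex (-0.23).

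Between the regions, in non-transgenic mice, 8 of 32 members were called in the hippocampus against the entorhinal cortex, beside 36.8% of all genes, 2 higher and 6 lower in the hippocampus. Stard4 (-0.45 ± 0.08), Hmgcs1 (-0.45 ± 0.07), Cyp46a1 (-0.40 ± 0.07) and Sqle (-0.24 ± 0.08) were the lowest, and Insig2 (0.33 ± 0.06) and Scap (0.19 ± 0.06) the highest, all with adjusted p at or under 0.023. Hippocampal arrays of Stard4, Hmgcs1, Cyp46a1 and Sqle all lay under the entorhinal ones, as they did for 10.4% of all genes. The call of Sqle was lost without sham array 3 of the entorhinal cortex (adjusted p 0.059) or non-transgenic GFP array 1 of the hippocampus (0.091), and without the latter 5 members were called. Scap turned to -0.01 with the mean of its probe sets. With the oligodendrocyte mean as a covariate Stard4 (-0.36, adjusted p 0.089), Insig2 (adjusted p 0.13), Scap (0.29) and Sqle (0.42) lost the call. That mean itself separates the regions, so this fit cannot tell it apart from the region.

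In transgenic mice 9 of 32 members were called, beside 44.3% of genes. Pmvk (-0.34 ± 0.06), the kinase after mevalonate kinase, Hmgcs1 (-0.24 ± 0.06), Scd1 (-0.23 ± 0.07) and Cyp46a1 (-0.22 ± 0.06) were lower in the hippocampus. Srebf2 (0.28 ± 0.08), Fdps (0.24 ± 0.08) and Insig2 (0.23 ± 0.05) were higher. The probe sets of Hmgcs1 disagreed. Below the brightest they read -0.04 ± 0.08, 0.0007 ± 0.08, -0.16 ± 0.07 and -0.31 ± 0.10, the last being the dimmest. Stard4, at -0.16 ± 0.07, missed the threshold narrowly (adjusted p 0.0504). It passed without entorhinal BDNF array 1 (0.019) or GFP array 1 (0.018), and without hippocampal GFP array 1 (0.034) or 4 (0.039) or BDNF array 2 (0.046), and it was -0.31 (0.0075) with the probe sets averaged. With probe sets averaged, Fdps (0.05, adjusted p 0.58) and Scd1 (-0.0007, 0.995) lost the call. With the oligodendrocyte mean as a covariate Insig2 (0.15, adjusted p 0.18) and Hmgcs1 (-0.21, 0.13) lost it, and on high-Xist arrays alone Scd1 did (-0.22, 0.079). Oligodendrocyte markers were higher in the hippocampus in 11 of 11, with medians of 1.45 without and 1.19 with the transgene. Their mean was 7.38 to 9.01 over the entorhinal arrays and 9.43 to 10.1 over the hippocampal ones. The covariate fit cannot tell this mean apart from the region, so their part in the region differences was not tested.

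**Figure D5:**
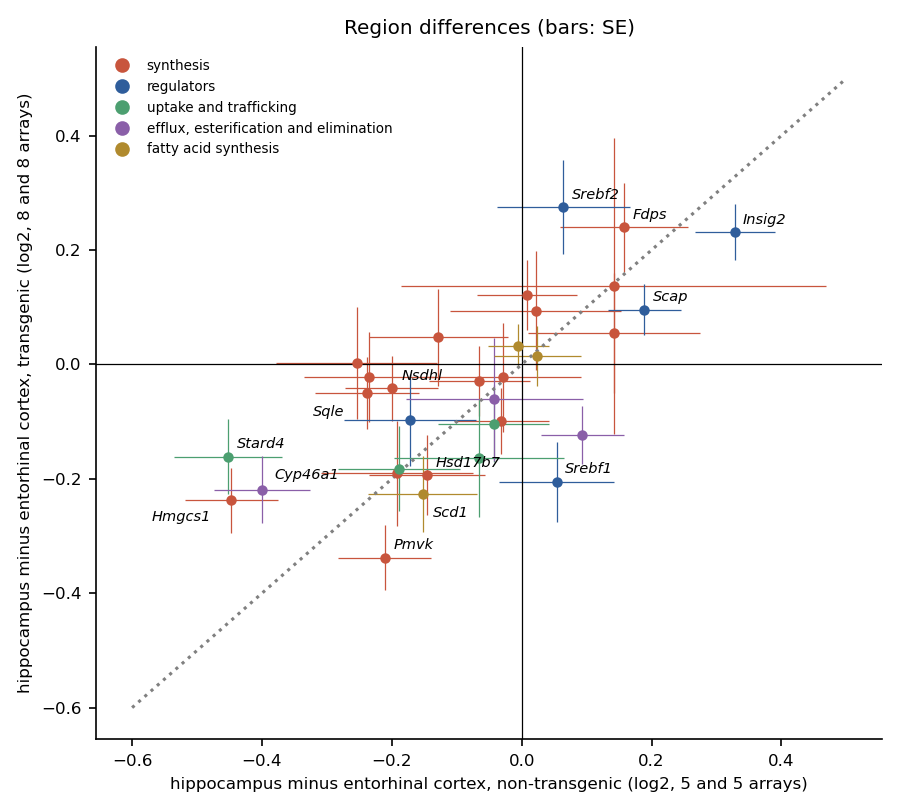
Hippocampus minus entorhinal cortex (log2) for each of the 32 genes in non-transgenic mice (horizontal axis) and transgenic mice (vertical axis), with standard errors, the dotted line marking equal values. Genes named are those called in either. Stard4 and Hmgcs1 lie left and above the line, lower in the hippocampus by less in transgenic mice on the probe sets shown. The dimmest Stard4 probe set, not shown, read -0.40 ± 0.17 without and -0.49 ± 0.13 with the transgene.

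A wider list of 36 tested genes of sterol and lipid metabolism, holding none of the 35, was read beside them. In the hippocampus 20 of 36 lay above 0 in transgenic mice (median 0.03) and 4 were higher at an unadjusted p under 0.05, and in the entorhinal cortex 23 of 36 did (median 0.05) with 3 such genes. None was called. The smallest p values were those of Tm7sf2, a sterol reductase of the same route, at 0.23 ± 0.08 in the entorhinal cortex (adjusted p 0.39), of Prkaa2, a catalytic subunit of the energy sensor AMPK, at 0.18 ± 0.07 in the hippocampus (0.81), and of Pcyt2, which makes a precursor of phosphatidylethanolamine, at 0.21 ± 0.08 in the entorhinal cortex (0.42).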

How the data were processed

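Expression was measured in 13 entorhinal and 13 hippocampal arrays, in 8 groups taken from the labels. The authors deposited log2 values in 1 table, made with RMA, per the submitters' processing notes. The software version was not given in the sources used here. RMA in its usual form corrects background, applies quantile normalization and sums up probes. Such normalization removes changes shared by most genes and compresses differences of dim probe sets, and the number of arrays limits the precision.

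Of 45101 probe sets, 34958 had 1 symbol in the platform annotation, 932 several and 9211 no entry. Each of 18194 genes was read from its brightest probe set over all 26 arrays, and 14941 above the 30th percentile (4.33) were tested. Linear models used limma 3.58.1 in R 4.3.3 (lmFit, eBayes), with 4 groups per region or all 8 groups for comparisons of regions, and pooled groups weighted by arrays. P-values are 2-sided and adjusted by the Benjamini-Hochberg method over all genes, called under 0.05. The fit was tested on simulated data.

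Values per array are given for members called within a region, for the 6 synthesis genes and for 1 gene of each other role with the smallest p for transgenic against non-transgenic. Between regions up to 4 called members per direction are named, and of the wider list the genes with the smallest p. The members and lists were chosen with earlier results of these data known. Alternatives were no filter, a 50th percentile filter, averaging a gene's probe sets, quantile-normalizing again, median centring, a robust eBayes with a trend, array weights, leaving other groups out of the fit, a replicate block, covariates (Xist, oligodendrocyte and antigen presentation markers) and leaving out each array. High-Xist arrays alone, sham or GFP as the only control, and leaving out both entorhinal arrays with low oligodendrocyte markers were added after seeing the data.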

Additional observations from a re-analysis of the deposited data

Results flagged for a closer look

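Among 148 groups of 4 arrays examined (each gene in each transgenic group, and the means of the roles), 12 had an array far from the other 3 by Dixon's criterion, which chance alone gives in about 1 group in 20. No explanation was weighed for them.

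Of synthesis, Fdps on entorhinal transgenic GFP array 1 was lowest at 8.407 (others 8.858 to 8.946), Cyp51 on hippocampal transgenic GFP array 4 was highest at 9.05 (8.424 to 8.507), and Dhcr7 on hippocampal transgenic BDNF array 4 was highest at 8.923 (8.743 to 8.766). Of the regulators, Srebf1 on hippocampal transgenic BDNF array 1 was lowest at 8.726 (8.858 to 8.878). Srebf2 was lowest on entorhinal transgenic BDNF array 1 at 8.071 (8.491 to 8.565) and on hippocampal transgenic BDNF array 3 at 8.568 (8.655 to 8.663). Insig2 on that hippocampal array was lowest at 9.376 (9.488 to 9.509).

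Lrp1 was highest on entorhinal transgenic GFP array 1 at 9.535 (9.15 to 9.182) and lowest on hippocampal transgenic GFP array 1 at 8.788 (9.173 to 9.209). Cyp46a1 was highest on hippocampal transgenic BDNF array 4 at 10.236 (10.044 to 10.075). Scd2 was lowest on hippocampal transgenic BDNF array 2 at 12.686 (12.72 to 12.726), and the mean of the 3 fatty acid genes was lowest on entorhinal transgenic GFP array 4 at 10.827 (10.958 to 10.982).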

How the results depend on the processing

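The hippocampal Stard4 call over all transgenic arrays was lost, with 0 members called, with probe sets averaged, on high-Xist arrays alone, and with the replicate block. The replicate numbers did not pair the arrays (same-numbered arrays' deviations correlated at -0.25 to 0.39), and with the block Stard4 differed by 0.59 (adjusted p 0.052). For transgenic GFP, 0 members were called with the mean of probe sets, the block, the Xist covariate, only the groups compared, high-Xist arrays, sham only or GFP only. For transgenic BDNF, 0 were called under the same settings except only the groups compared, which gave 2 (Fdft1 too, adjusted p 0.0037), and 0 with the oligodendrocyte covariate. In the entorhinal cortex array weights gave 1 called member for transgenic GFP (Fdft1, adjusted p 0.048). In non-transgenic mice the oligodendrocyte covariate, which itself separates the regions, left 3 members called between regions and a synthesis median of -0.0474, and Scap was -0.0093 (adjusted p 0.93) with probe sets averaged.

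The synthesis median moved to 0.25 (entorhinal, all transgenic), 0.41 (hippocampal, all transgenic), 0.22 (entorhinal BDNF) and 0.32 (hippocampal BDNF) against GFP alone, and to 0.0506 (entorhinal BDNF) against sham alone. For GFP against sham it was -0.0742 (block) and -0.0345 (antigen presentation covariate) in the entorhinal cortex, and -0.10 (mean of probe sets) and 0.0325 (antigen presentation covariate) in the hippocampus. Leaving out single arrays gave 1 to 4 called members for the transgenic hippocampus (of 4 to 14 genes called in all), 0 to 4 for transgenic GFP (of 1 to 10), 0 to 1 for transgenic BDNF (of 1 to 6), 0 to 3 against non-transgenic GFP (of 1 to 5), and 5 to 9 between regions without the transgene (of 4853 to 5559). It gave synthesis medians of -0.14 to -0.0792 and -0.22 to -0.12 for GFP against sham in the entorhinal cortex and hippocampus, and -0.16 to -0.0518 between regions. Where the cause is not in a setting's own construction, it was not tested. Groups of 2 to 4 arrays limit every comparison, and since every transgenic mouse had a virus, a virus effect particular to transgenic mice cannot be told apart from the transgene. Comparisons with all non-transgenic arrays also set virus-treated arrays against controls that include sham arrays. The arrays with low Xist were all transgenic, so the genotypes were not balanced for it.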
